A study of Mus musculus with 12 samples.

Results

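A deoxycytidine analogue given as a drug has to enter the cell, be phosphorylated and escape breakdown before it can act on DNA. The 10 genes described here encode proteins of those steps: the transporters Slc29a1, Slc29a2 and Slc28a2, the activating kinase Dck, the deaminases Cda and Dctd, the triphosphate hydrolase Samhd1, the nucleotidase Nt5c2, the ribonucleotide reductase subunit Rrm1 and the phosphorylase Tymp. They were chosen by name for these roles, with earlier results of these data known. All 10 were found among the 55471 gene IDs of the count table. RNA-seq measured their transcripts in livers of C57BL/6 mice in 4 groups of 3 samples: standard diet, MASLD diet (MASLD is metabolic dysfunction-associated steatotic liver disease), MASLD diet with 0.1x Aza-TdC, and MASLD diet with 1x Aza-TdC. Aza-TdC is a deoxycytidine analogue that depletes the DNA methyltransferase DNMT1 once it is built into DNA. Both Aza-TdC groups and the MASLD group shared the diet, and no group combined Aza-TdC with the standard diet. The labels give the doses only as 0.1x and 1x, and give neither age, sex, time on the diet nor the diet's composition. Whether each liver sample is a different animal is not stated, and p-values therefore cover only the sample-to-sample spread, part of which may be technical.

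Equilibrative transporters (the SLC29 family) let nucleosides cross the membrane down their gradient, whereas concentrative transporters (the SLC28 family) carry them in with sodium. Deoxycytidine kinase adds the first phosphate, which traps the analogue in the cell and is the rate-limiting step of activation for most drugs of this class. Cytidine deaminase turns deoxycytidine analogues into uridine analogues, and SAMHD1 strips the triphosphate from deoxynucleotides and from several analogues. Ribonucleotide reductase makes the natural deoxynucleotides that compete with an analogue for the same enzymes. Transcript levels were measured here. Enzyme activity, drug levels and DNA methylation were not analysed here.

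Of the 9 genes that could be tested, 3 differed between the diets, where 29.5% of all genes tested did. Between Aza-TdC and the MASLD diet 0 of 9 differed at 0.1x, beside 13.2% of all genes, and 0 of 9 at 1x, beside 3.11%. Slc29a1, the main equilibrative transporter and the most abundant of the 10, fell 2.36-fold on the MASLD diet. Nt5c2 and Rrm1 rose 1.35-fold and 1.62-fold, but neither rise passed once a dependence of the counts on GC content and transcript length was removed (adjusted p = 0.560 and 0.0981), and that of Nt5c2 was also lost without any 1 of 5 libraries. That removal was made per library without regard to group, so it can also take out diet differences that follow GC content or length. Dck, the activating kinase, and Cda, the deaminase, did not pass in any comparison. Dctd was close to absent in every library.

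The promoter windows of the 3 genes that differed between the diets are shown with every CpG in capitals. None of the 3 passed at either dose of Aza-TdC against the MASLD diet, and methylation of these sites was not analysed. Each covers 250 bases before and 50 after a RefSeq start, read 5′ to 3′ on the gene's own strand (RefSeq, build GRCm38.p6), and for a gene with several starts the one nearest to the start of the principal transcript is given. The windows are Slc29a1 at chr17:45592888-45593187 (minus strand), Nt5c2 at chr19:46962259-46962558 (minus strand) and Rrm1 at chr7:102441445-102441744 (plus strand). The last 20 bases of the Rrm1 window occurred in an annotated transcript of the gene, and those of Slc29a1 and Nt5c2 did not. The strand of the latter windows rests on the RefSeq annotation.
Slc29a1: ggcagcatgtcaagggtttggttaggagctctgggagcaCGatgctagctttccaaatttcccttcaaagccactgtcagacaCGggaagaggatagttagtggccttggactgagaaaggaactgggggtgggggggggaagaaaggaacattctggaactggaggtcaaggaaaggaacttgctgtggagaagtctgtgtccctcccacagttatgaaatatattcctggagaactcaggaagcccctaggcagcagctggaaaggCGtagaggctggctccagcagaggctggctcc
Nt5c2: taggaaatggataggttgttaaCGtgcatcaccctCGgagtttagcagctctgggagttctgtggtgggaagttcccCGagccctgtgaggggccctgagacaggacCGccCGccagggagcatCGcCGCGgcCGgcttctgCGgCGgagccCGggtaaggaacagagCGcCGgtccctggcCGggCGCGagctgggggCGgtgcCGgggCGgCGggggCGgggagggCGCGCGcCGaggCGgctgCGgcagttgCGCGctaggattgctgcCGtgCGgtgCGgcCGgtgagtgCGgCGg
Rrm1: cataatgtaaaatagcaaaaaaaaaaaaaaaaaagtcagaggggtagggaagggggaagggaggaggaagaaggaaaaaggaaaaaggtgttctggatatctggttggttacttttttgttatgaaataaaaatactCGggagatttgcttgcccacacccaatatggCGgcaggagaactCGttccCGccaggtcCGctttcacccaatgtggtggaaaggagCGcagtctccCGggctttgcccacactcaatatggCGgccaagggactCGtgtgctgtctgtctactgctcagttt

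The 3 windows differed in CpG content. Nt5c2 held 36 CpGs, and 94.4% of the 32851 windows in the RefSeq table, whose median was 7, held that many or fewer. Rrm1 held 9 and the Slc29a1 window shown held 3. Slc29a1 has 8 annotated starts, with 3 to 30 CpGs in their windows, and the start shown lies at −362 bases from its principal start. Which start was used in these livers cannot be read from gene counts. The letters GGGCGG (the GC box), searched on both strands, stood 4 times in the Nt5c2 window and in 35.7% of all windows. CCAAT, searched likewise, stood 2 times in the Rrm1 window and in 37.4% of all windows. TTTNNCGC, an E2F-type motif searched likewise, was not found in the 3 windows shown and stood in 5.17% of all windows.

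Totals ran from 30213048 to 41852606 counts per library. Levels are given as CPM, read counts relative to the library total after TMM scaling. As a check of the tissue, all 9 matched hepatocyte markers were present in every library and summed to between 87935 and 179740 CPM, while 4 kidney markers summed to at most 0.0513 CPM. Some libraries carried a dependence on GC content and transcript length, strongest in 0.1x sample 3 (22.3% of the variance of its gene-wise deviations) and 1x sample 2 (18.6%). This dependence is called the composition trend. The trend was fitted per library without regard to group. Removing it can therefore also take out group differences that follow GC content or length.

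**Figure D1:**
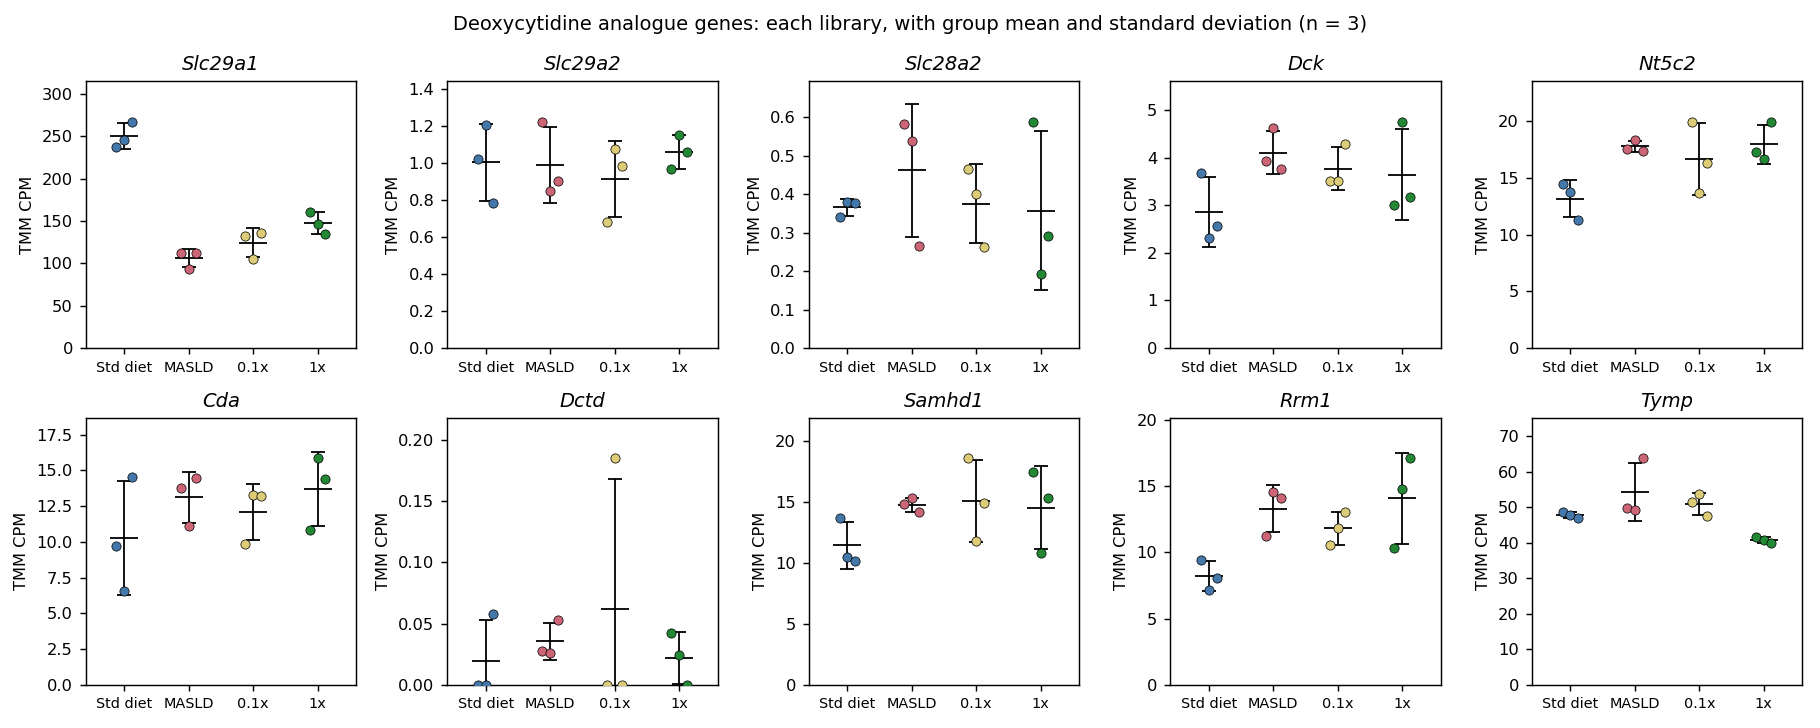
Expression of the 10 genes in each library. The vertical axis of each panel is CPM after TMM scaling, starting at 0, points are libraries, and bars show the mean and standard deviation of 3 libraries for the standard diet (Std diet), the MASLD diet and the MASLD diet with 0.1x or 1x Aza-TdC. The 3 standard-diet libraries lie at 237 to 267 CPM for Slc29a1, above all 9 others, and for Dctd 5 of the 12 libraries lie at 0.

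Compared per length (CPM per kilobase of the principal transcript, mean of 12 libraries), the 10 genes spanned from high to barely detected. Slc29a1 stood at 70.8 CPM per kb, above 93.5% of the genes tested, followed by Tymp at 23.8 and Cda at 14.5. A middle set held Nt5c2 at 4.40, Samhd1 at 3.56, Rrm1 at 2.96 and Dck at 1.17 CPM per kb. Slc29a2 at 0.379, Slc28a2 at 0.0998 and Dctd at 0.0165 formed the low end. The deaminase Cda thus stood well above the kinase Dck, whose level lay above 33.6% of the genes tested.

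Each contrast was tested with edgeR's quasi-likelihood test over 13866 genes, Benjamini-Hochberg adjusted with a threshold of 0.05. 9 of the 10 genes had enough counts to be tested and Dctd did not. On the MASLD diet against the standard diet 3 of 9 passed, 2 higher and 1 lower, where 29.5% of all genes tested passed (15.6% higher and 13.9% lower). At 0.1x Aza-TdC against the MASLD diet 0 of 9 passed, beside 13.2% of all genes (6.08% higher, 7.09% lower), and at 1x 0 of 9 passed, beside 3.11% of all genes (1.49% higher, 1.62% lower). Between the doses 0 of 9 passed, beside 13.0% of all genes (7.13% higher at 1x, 5.86% lower). Against the standard diet 1 of 9 passed at 0.1x, beside 20.7% of all genes (9.85% higher, 10.9% lower), and 3 of 9 passed at 1x, beside 19.8% of all genes (9.91% higher, 9.84% lower). The share of the 9 genes that passed on the diet was thus near that of all genes. At an unadjusted p under 0.05 there were 0 of 9 at 0.1x, 2 at 1x (Slc29a1 and Tymp) and 1 between the doses (Tymp), beside 30.9%, 17.0% and 30.4% of all genes tested. With DESeq2 in place of edgeR 0, 2 and 1 passed after adjustment, the same genes. The median log2 fold change over the 9 genes was 0.35 on the diet, against 0.03 over all genes tested, −0.11 at 0.1x against −0.02, and 0.02 at 1x against −0.00.

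**Figure D2:**
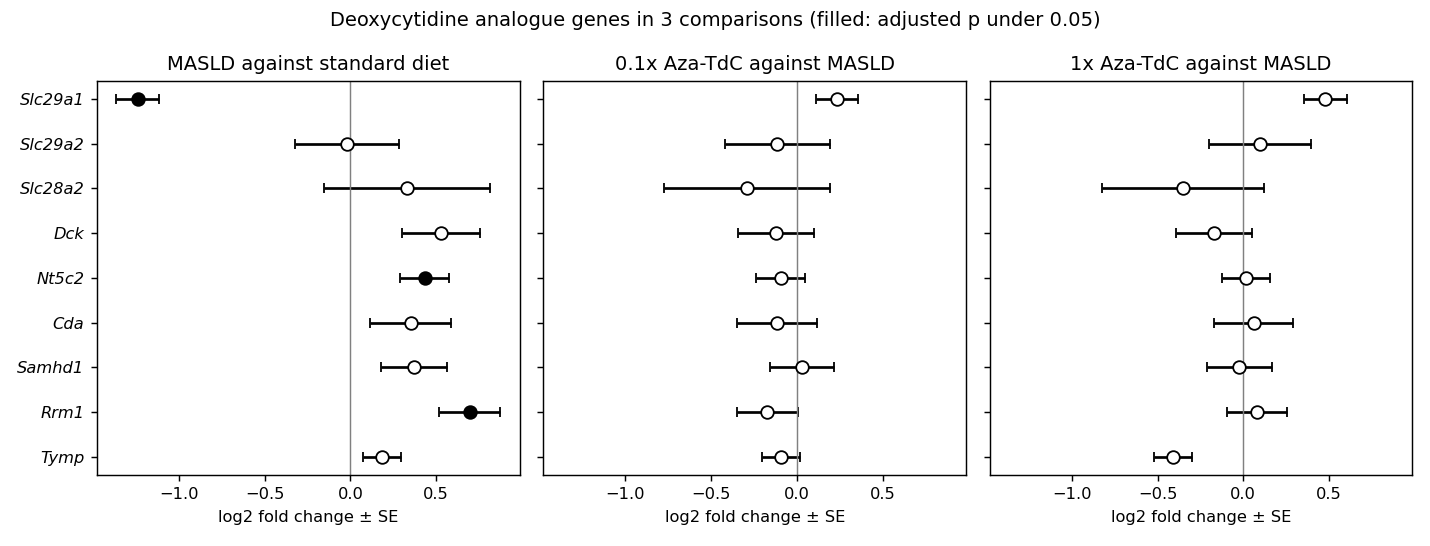
Log2 fold changes of the 9 genes tested in 3 comparisons. The horizontal axis is the log2 fold change, points show the estimate and bars its standard error, and filled points passed at an adjusted p under 0.05. Filled points appear only on the diet, for Slc29a1 at −1.24, Nt5c2 at 0.43 and Rrm1 at 0.70, and none appears at either dose.

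Slc29a1 (ENSMUSG00000023942, chr17:45585200-45599606, minus strand, mm10) encodes ENT1, the equilibrative transporter through which many nucleoside drugs enter cells. It stood at 237, 246 and 267 CPM in standard-diet samples 3, 4 and 5, at 112, 93.7 and 112 CPM in MASLD samples 3, 4 and 5, at 133, 105 and 136 CPM in 0.1x samples 1, 3 and 4, and at 161, 146 and 135 CPM in 1x samples 2, 4 and 5. Every standard-diet library lay above every library on the MASLD diet, treated or not. On the diet the transporter fell by 1.24 ± 0.13 on the log2 scale (estimate ± SE, 95% confidence interval −1.51 to −0.97, adjusted p = 7.12e-06). The fall passed under every alternative run, at −1.28 to −1.16. Against the standard diet it was also 2.01-fold lower at 0.1x (adjusted p = 8.09e-05) and 1.70-fold lower at 1x (log2 fold change −0.76 ± 0.12, adjusted p = 0.000729).

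Aza-TdC livers held intermediate levels of Slc29a1, and neither dose passed against the MASLD diet. At 0.1x the difference was 0.24 ± 0.12 (95% confidence interval −0.03 to 0.50, adjusted p = 0.214), and the groups overlapped. At 1x it was 0.48 ± 0.12 (0.21 to 0.74, adjusted p = 0.0519), and all 3 libraries at 1x lay above all 3 on the MASLD diet alone. This difference at 1x lay next to the threshold and passed with RLE factors (adjusted p = 0.0492), with DESeq2 (0.00683), with no filter on low counts (0.0189), with only the 2 groups in the fit (0.0240) and with the composition trend removed (0.0229), and over all alternatives its adjusted p ran from 0.00683 to 0.410. Between the doses it was 0.24 ± 0.12 (adjusted p = 0.204), and 1x sample 5 at 135 CPM lay below 0.1x sample 4 at 136 CPM. In order, the group means ran from the standard diet at 249.9 ± 15.4 (mean ± SD, n = 3) through 1x at 147 ± 13.2 and 0.1x at 125 ± 17.1 to the MASLD diet at 106 ± 10.5 CPM.

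Hepatocyte markers moved with Slc29a1. Of 9 hepatocyte markers 8 fell on the diet and 0 rose, and their summed level ran from 169240 to 179740 CPM on the standard diet, 87935 to 108350 on the MASLD diet, 90660 to 137500 at 0.1x and 103080 to 122630 at 1x. None of the 9 passed at either dose against the MASLD diet. In bulk liver, fewer hepatocytes and less Slc29a1 RNA per hepatocyte cannot be told apart, and the part of these markers in the change of Slc29a1 was not tested. Slc29a1 shares 275 exon bases with an antisense gene, Gm17080, whose reads can be told apart only if the counting used strand.

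The other carriers were low in every group. Slc29a2 (ENT2, the second equilibrative carrier at the cell surface) held 22 to 48 counts per library, or 0.682 to 1.22 CPM, and its log2 fold change on the diet was −0.02 (95% confidence interval −0.67 to 0.63). Slc28a2 (CNT2, a sodium-driven carrier that prefers purine nucleosides and uridine) held 8 to 28 counts per library, or 0.192 to 0.589 CPM, and differed by 0.33 on the diet (−0.71 to 1.37). All groups overlapped for both genes. Neither passed in any of the 6 comparisons, and at these counts only large changes would have been detectable. Of the 4 further nucleoside carriers on the pathway list, only Slc29a3, the lysosomal carrier ENT3, was tested (0.35 ± 0.28 on the diet, adjusted p = 0.371). Slc28a1, the sodium-driven carrier for pyrimidine nucleosides including cytidine, reached at most 12 counts, Slc28a3 at most 3 and Slc29a4 at most 2.

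Dck (ENSMUSG00000029366, chr5:88764996-88783281, plus strand) encodes the kinase that adds the first phosphate. It stood at 3.68, 2.31 and 2.56 CPM on the standard diet, at 3.92, 4.62 and 3.76 CPM on the MASLD diet, at 3.50, 3.51 and 4.29 CPM at 0.1x and at 3.01, 4.75 and 3.17 CPM at 1x, with samples in the order given for Slc29a1. All 3 MASLD libraries lay above the 3 standard-diet libraries, by a narrow margin over sample 3. The log2 fold change on the diet was 0.53 ± 0.23 (95% confidence interval 0.04 to 1.01, adjusted p = 0.0926). Without standard-diet sample 3, the highest of its group, it was 0.75 and passed (adjusted p = 0.0300). Neither dose passed, with −0.12 (−0.60 to 0.35) at 0.1x and −0.17 (−0.64 to 0.30) at 1x against the MASLD diet. The kinase was read from 73 to 198 counts per library.

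Cda (ENSMUSG00000028755, chr4:138338424-138367992, minus strand) encodes cytidine deaminase, which inactivates deoxycytidine analogues. It stood at 9.69, 6.59 and 14.5 CPM on the standard diet, 13.8, 11.1 and 14.4 CPM on the MASLD diet, 9.82, 13.3 and 13.2 CPM at 0.1x and 10.8, 15.8 and 14.4 CPM at 1x. The standard-diet libraries spread widely among themselves and overlapped every other group. On the diet the difference was 0.35 ± 0.23 (95% confidence interval −0.15 to 0.85, adjusted p = 0.279). It passed without standard-diet sample 5, at 0.69 (adjusted p = 0.0381), and with the composition trend removed, at 0.56 (adjusted p = 0.0405). Against the standard diet 1x did not pass either (0.41, adjusted p = 0.238), with the same exceptions (0.75 without sample 5, 0.64 with the trend removed). At 0.1x it differed from the MASLD diet by −0.12 (−0.61 to 0.38) and at 1x by 0.06 (−0.43 to 0.55).

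Dctd (ENSMUSG00000031562, chr8:48099092-48153233, plus strand) encodes deoxycytidylate deaminase, which acts on the monophosphate rather than the nucleoside. It had 0, 0 and 2 counts on the standard diet, 1, 1 and 2 on the MASLD diet, 0, 6 and 0 at 0.1x and 2, 1 and 0 at 1x. In the 5 libraries with 0 counts, the limit set by 3 counts was 0.0793 to 0.102 CPM, which covers counting error only. The gene was not tested, and a difference between groups was not detectable at this depth.

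The balance between activation and breakdown was followed as a ratio within each library. The log2 ratio of Dck to Cda, with 0.5 CPM added to each, averaged −1.64 ± 0.57 (SD, n = 3) on the standard diet, −1.56 ± 0.33 on the MASLD diet, −1.55 ± 0.21 at 0.1x and −1.78 ± 0.21 at 1x. The log2 ratio of Samhd1 to Dck averaged 1.84 ± 0.11, 1.74 ± 0.09, 1.85 ± 0.35 and 1.86 ± 0.66 in the same order. Neither ratio differed between the groups beyond the spread of the libraries, by an exact permutation test over all 15400 divisions of the 12 libraries into 4 groups of 3 (p = 0.855 and 0.988, adjusted over the 2 ratios 0.988 each). The spread was widest for Samhd1 to Dck at 1x, where sample 4 stood at 1.11 and samples 2 and 5 at 2.36 and 2.11. Under the alternatives run, adjusted p stayed between 0.581 and 1.00 for Dck to Cda and between 0.293 and 1.00 for Samhd1 to Dck.

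**Figure D3:**
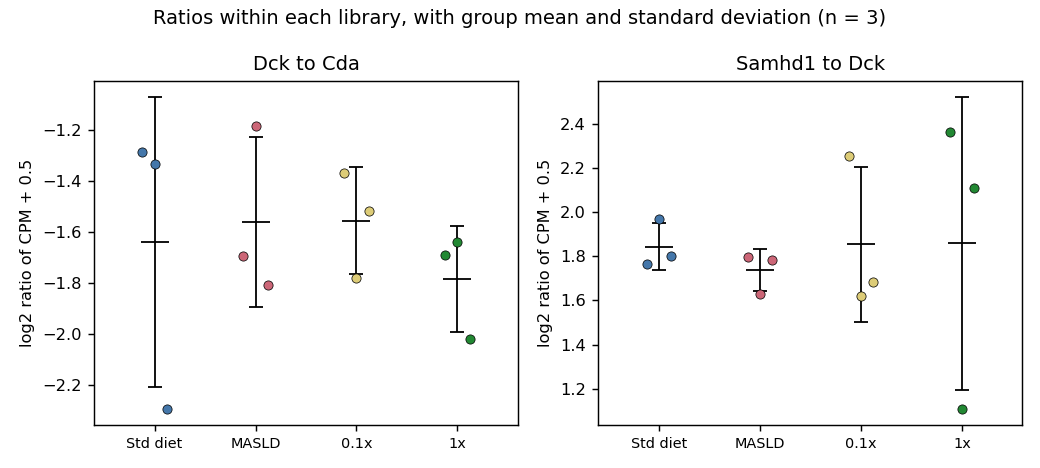
Ratios of Dck to Cda and of Samhd1 to Dck in each library. The vertical axes are log2 ratios of CPM with 0.5 added and do not start at 0, points are libraries, and bars show the mean and standard deviation of 3 libraries per group. Group means differ by at most 0.23 for Dck to Cda and 0.12 for Samhd1 to Dck, while single groups spread by as much as −1.28 to −2.29 (Dck to Cda, standard diet).

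Samhd1 (ENSMUSG00000027639, chr2:157097533-157135265, minus strand), the triphosphate hydrolase, stood at 13.7, 10.5 and 10.1 CPM on the standard diet, 14.9, 15.3 and 14.2 CPM on the MASLD diet, 18.6, 11.8 and 14.9 CPM at 0.1x and 17.5, 10.8 and 15.3 CPM at 1x. The untreated diet groups did not overlap, whereas both dose groups spread from within the standard-diet range to above the highest MASLD library. On the diet the difference was 0.37 ± 0.19 (adjusted p = 0.155), and the doses differed from the MASLD diet by 0.03 (95% confidence interval −0.37 to 0.43) and −0.02 (−0.42 to 0.38). Macrophages and other myeloid cells are a known site of high SAMHD1. Of 12 macrophage markers 10 rose on the diet and 0 fell, and their summed level ran from 190 to 300 CPM on the standard diet, 374 to 566 on the MASLD diet, 458 to 529 at 0.1x and 207 to 384 at 1x. The part of these cells in the values of Samhd1 was not tested.

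Nt5c2 (ENSMUSG00000025041, chr19:46883317-47015153, minus strand) encodes a cytosolic nucleotidase that removes the phosphate from nucleoside monophosphates, purine ones above all. It stood at 14.5, 13.7 and 11.3 CPM on the standard diet, 17.6, 18.3 and 17.4 CPM on the MASLD diet, 19.96, 13.7 and 16.3 CPM at 0.1x and 17.3, 16.7 and 19.95 CPM at 1x. The 3 MASLD libraries lay close together and above the standard-diet libraries. Nt5c2 rose on the diet by 0.43 ± 0.14 (95% confidence interval 0.13 to 0.74, adjusted p = 0.0349). The rise did not pass once standard-diet sample 4 or 5, or any MASLD sample, was left out (adjusted p 0.0614 to 0.148), and with the composition trend removed the difference was 0.10 (adjusted p = 0.560). At 1x it was higher than on the standard diet by 0.45 ± 0.14 (adjusted p = 0.0396), a call lost without standard-diet sample 4 or 5 or 1x sample 2 or 5 (adjusted p from 0.0671 to 0.169) and with the trend removed (0.19, adjusted p = 0.280). At 0.1x it did not pass against the standard diet (0.34, adjusted p = 0.112), and it passed without 0.1x sample 3, the lowest of its group (0.46, adjusted p = 0.0313), without that library and 1x sample 2 (0.0338), and with the composition trend removed (0.39, adjusted p = 0.0289). The doses differed from the MASLD diet by −0.09 (−0.40 to 0.21) and 0.02 (−0.29 to 0.32). The gene shares 456 exon bases with Ina on the opposite strand.

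Rrm1 (ENSMUSG00000030978, chr7:102441695-102469771, plus strand) encodes the large subunit of ribonucleotide reductase. It stood at 9.38, 7.19 and 8.05 CPM on the standard diet, 11.2, 14.5 and 14.1 CPM on the MASLD diet, 10.6, 11.8 and 13.01 CPM at 0.1x and 10.3, 14.8 and 17.1 CPM at 1x. All 9 libraries on the MASLD diet, treated or not, lay above the 3 on the standard diet. Rrm1 rose on the diet by 0.70 ± 0.18 (95% confidence interval 0.31 to 1.08, adjusted p = 0.00951), and the call was lost with the composition trend removed (0.43, adjusted p = 0.0981). Against the standard diet it was higher at 1x (0.78 ± 0.18, adjusted p = 0.00734) and did not pass at 0.1x (0.52 ± 0.18, adjusted p = 0.0524), where it lay next to the threshold and passed under 5 alternatives, among them DESeq2 (0.0400) and leaving out standard-diet sample 3 (0.0446). The doses differed from the MASLD diet by −0.17 (−0.55 to 0.20) and 0.08 (−0.29 to 0.45). Its small-subunit partner Rrm2, which cells make mainly while copying DNA, was lower on the diet (−0.58 ± 0.18, adjusted p = 0.0222), a call lost without standard-diet sample 4 or MASLD sample 3 or 4 (0.0667 to 0.108). Of 12 cell cycle genes 9 rose on the diet and 0 fell, with summed levels of 34.4 to 44.6 CPM on the standard diet and 43.9 to 60.4 CPM on the MASLD diet, and their part in the rise of Rrm1 was not tested.

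Tymp (ENSMUSG00000022615, chr15:89371931-89377039, minus strand) encodes thymidine phosphorylase, which splits thymidine and related nucleosides into base and sugar. It stood at 48.7, 47.7 and 46.8 CPM on the standard diet, 49.8, 49.2 and 63.7 CPM on the MASLD diet, 51.4, 53.5 and 47.6 CPM at 0.1x and 41.6, 40.6 and 39.96 CPM at 1x. The 3 libraries at 1x were the lowest of all 12. Against the MASLD diet the difference at 1x was −0.41 ± 0.11 (95% confidence interval −0.65 to −0.18, adjusted p = 0.0578), and against 0.1x it was −0.32 ± 0.11 (adjusted p = 0.0687), so neither passed. Both passed with DESeq2 (adjusted p = 0.0166 and 0.0383) and when genes were kept at a mean of at least 1 CPM (0.0432 and 0.0460), and over all alternatives adjusted p ran from 0.0166 to 0.295 and from 0.0383 to 0.434. On the diet it differed by 0.18 ± 0.11 (adjusted p = 0.230). Tymp shares 856 exon bases with Sco2 on the same strand and 535 with Ncaph2 on the other, so its counts may hold reads of these genes or miss some of its own.

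The 9 tested genes did not move as a block. Over the 12 libraries the closest pair in log2 CPM was Nt5c2 and Samhd1 (Pearson r = 0.801, Spearman rho = 0.818) and the most opposed was Slc29a1 and Rrm1 (r = −0.763, rho = −0.629). These are descriptions over libraries that fall into 4 groups and share scaling. Among 10651 other genes, the pattern of Slc29a1 was closest to those of Rdh16f2 (r = 0.984, n = 12), a retinol dehydrogenase family gene, of Gls2 (0.981), the liver-type glutaminase, and of F7 (0.980), coagulation factor VII. F7 stood at 124 ± 4.93 CPM on the standard diet and 46.4 ± 4.32 on the MASLD diet (mean ± SD, n = 3). At 0.1x it stood at 53.7 ± 8.67 CPM and at 1x at 72.7 ± 3.94 CPM. The order of groups was that of Slc29a1, which the choice of F7 by correlation over the same libraries favours. Nt5c2 was closest to Unc45a (0.947), a myosin chaperone gene, Slc6a8 (0.947), the creatine transporter, and Slc35b4 (0.946), a nucleotide sugar transporter. Rrm1 was closest to Acot2 (0.900), an acyl-CoA thioesterase, Bhlhb9 (0.881) and Bco1 (0.881), a carotene oxygenase.

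Around these genes, 51 further genes of nucleoside transport, phosphorylation, deoxynucleotide synthesis and pyrimidine breakdown were listed, and 45 were tested. On the MASLD diet 10 of 45 rose and 13 fell, beside 15.6% and 13.9% of all genes tested. Among efflux pumps, which carry nucleotides and drugs out of cells, 3 of 4 rose: Abcc4 from 1.45 to 12.1 CPM (group means, 3.06 ± 0.21, adjusted p = 1.90e-07), Abcc5 from 0.994 to 3.35 CPM (1.75 ± 0.28) and Abcg2 from 77.8 to 149.5 CPM (0.94 ± 0.11). Ctps, which makes CTP from UTP, rose from 3.17 to 11.3 CPM (1.84 ± 0.20), and the uridine-cytidine kinase Uck1 rose from 27.2 to 54.3 CPM (1.00 ± 0.13). Enzymes of pyrimidine breakdown fell, 3 of 3, with Dpyd, the first step, at 555 CPM on the standard diet and 292 on the MASLD diet (−0.92 ± 0.13) and Upb1, the last step, at 458 and 228 (−1.01 ± 0.12). Umps, which completes UMP, fell by 0.73 ± 0.10. The thymidine kinase Tk1 fell from 22.8, 31.6 and 37.2 CPM to 9.12, 8.51 and 9.25 CPM (−1.77 ± 0.17, adjusted p = 5.05e-06), and the uridine phosphorylase Upp2 from 519, 572 and 663 CPM to 171, 138 and 231 CPM (−1.70 ± 0.18, adjusted p = 1.14e-05). These 10 calls held under every alternative run.

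At both doses of Aza-TdC, Tk1 and Upp2 were higher than on the MASLD diet alone. Tk1 stood at 15.4, 20.1 and 16.3 CPM at 0.1x (log2 fold change 0.95 ± 0.17, adjusted p = 0.00901) and at 20.6, 25.8 and 27.0 CPM at 1x (1.45 ± 0.17, adjusted p = 0.000629), and all 6 treated libraries lay above the 3 untreated ones. Upp2 stood at 264, 373 and 312 CPM at 0.1x (0.81 ± 0.18, adjusted p = 0.0138) and at 409, 452 and 372 CPM at 1x (1.19 ± 0.18, adjusted p = 0.00334). The comparisons of the doses with the MASLD diet share its 3 libraries, so they are not independent. At 0.1x Upp2 did not pass once MASLD sample 3 or 4 was left out (0.0538 to 0.0623). With a block for the replicate numbers in the fit, neither gene passed at 0.1x (adjusted p = 0.0514 for Tk1 and 0.0567 for Upp2). The log2 fold changes there were 1.099 and 1.025. In that fit 0.1x sample 1, whose number no other group shares, adds nothing to the contrast. Both genes passed at 1x under every alternative run. Between the doses Tk1 differed by 0.50 (adjusted p = 0.0608), which did not pass, though it did with DESeq2 (0.0457), with no filter (0.00727) and without 0.1x sample 3 (0.0419).

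**Figure D4:**
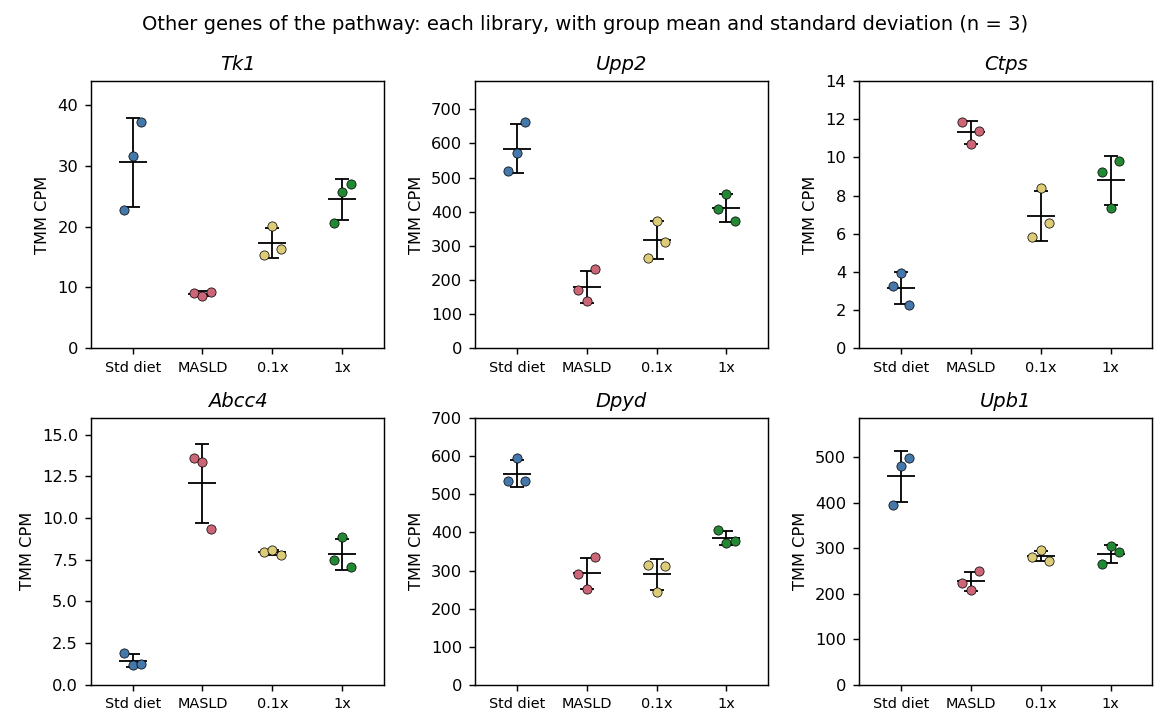
Expression of 6 further genes of the pathway in each library. The vertical axes are CPM after TMM scaling, starting at 0, points are libraries, and bars show the mean and standard deviation of 3 libraries for the standard diet (Std diet), the MASLD diet and the MASLD diet with 0.1x or 1x Aza-TdC. Tk1 and Upp2 fall on the diet and lie higher at both doses, Ctps and Abcc4 rise on the diet, and Dpyd and Upb1 fall.

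In all, 6 of the 45 were higher and 3 lower at 0.1x than on the MASLD diet, beside 6.08% and 7.09% of all genes tested, and 2 were higher and 1 lower at 1x, beside 1.49% and 1.62%. At 0.1x the mitochondrial kinases Tk2 (0.56 ± 0.12) and Dguok (0.51 ± 0.15), of which the latter phosphorylates purine deoxynucleosides, and Nme1, a nucleoside diphosphate kinase (0.63 ± 0.16), were higher. Ctps (−0.71 ± 0.19), Cad, the first enzyme of pyrimidine synthesis (−0.74 ± 0.17), and Abcc4 (−0.61 ± 0.18) were lower. Each of these 6 calls was lost when 1 library was left out, for Tk2 MASLD sample 5 (adjusted p = 0.0502), for Cad MASLD sample 3 or 4 (0.0581 to 0.0701), for Nme1 any of the 3 MASLD samples or 0.1x sample 3 (0.0537 to 0.0966), for Ctps any MASLD sample or 0.1x sample 1 or 4 (0.0621 to 0.0836), for Abcc4 MASLD sample 3 or 4 or any 0.1x sample (0.0659 to 0.140), and for Dguok any of the 6 (0.0617 to 0.154). With the composition trend removed Abcc4 (−0.26), Cad (−0.24) and Dguok (0.44) did not pass either. At 1x Nme6, a nucleoside diphosphate kinase family member, was lower (−0.57 ± 0.14, adjusted p = 0.0454), a call lost without any 1 of the 6 libraries (0.0568 to 0.168). Against the standard diet 11 were higher and 9 lower at 0.1x (all genes 9.85% and 10.9%), and 6 were higher and 7 lower at 1x (9.91% and 9.84%), with Abcc4 higher at both (2.45 ± 0.21 and 2.43 ± 0.20). Upp2 was below the standard diet at 0.1x (−0.89 ± 0.18, adjusted p = 0.00312) and did not pass at 1x (−0.51, adjusted p = 0.0562), where it passed with DESeq2 (0.0218), no filter (0.00689), only the 2 groups in the fit (0.0255), the composition trend removed (0.0257) and without standard-diet sample 3 (0.0484). Of 4 pyrophosphatases on the list, 1 was lower on the diet, beside 13.9% of all genes tested. At 0.1x 1 was higher than on the MASLD diet, beside 6.08%. The pyrophosphatase Dctpp1 averaged 36.1 CPM on the standard diet, 17.1 on the MASLD diet, 25.7 at 0.1x and 22.7 at 1x. Nme3, Nt5c1a and Nt5c1b had 0 counts in every library.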

How the data were processed

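Livers of 12 mouse samples, 3 per group, were sequenced as stranded libraries of polyadenylated RNA, per the labels' protocols. Reads were aligned with STAR 2.7.3a to mm10, per the submitters' processing notes. How reads were counted (tool, use of strand, gene models) is not stated in the labels or notes. The sequencer named in the sample labels differs from the one named in the series design. The authors deposited 1 table of raw counts per gene, with 12 columns and 0 outside the samples. In 1 case title and library name disagreed on the sample number, and the title was followed.

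From these counts, CPM and tests were obtained with edgeR 4.0.16 (R 4.3.3, limma 3.58.1). The filterByExpr function, given the groups, kept 13866 of the 22984 genes that had any count. After TMM scaling a single quasi-likelihood model with a coefficient for each of the 4 groups was fitted to the 12 libraries together. Tests were two-sided F tests with Benjamini-Hochberg adjustment over all genes tested, SEs were derived as |log2 fold change| / sqrt(F), and every adjusted p of a gene comes from this fit unless DESeq2 1.42.0 or another alternative is named. Positions, exon overlaps and lengths come from GENCODE vM21 (GRCm38, the assembly of mm10), which matched 55230 of 55471 IDs. The 241 others held 0.0033% of the counts. Similarity between genes was Pearson's r of log2 CPM (prior count 2) over genes with a mean of at least 1 CPM, without predicted genes and pseudogenes. All 10 genes were named whatever their result, and of the pathway list up to 5 per direction and comparison with the smallest adjusted p. Rrm2, Slc29a3, Dctpp1 and the genes that differed between the doses were named after their values were seen. Genes, lists and settings were chosen with earlier results of these data known. Libraries of a group differed beyond sampling noise in every pair (chi-square per degree of freedom 16.4 to 113). The fit was tested on simulated data before use. Alternatives were RLE factors, DESeq2, no expression filter, a minimum mean of 1 CPM, only the 2 groups compared, a replicate block, removal of the composition trend (GC content and transcript length, per library) (splines with 5 degrees of freedom), a threshold of 0.01, leaving out each library, and, added after seeing the data, leaving out the 2 libraries with the strongest trend.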

Additional observations from a re-analysis of the deposited data

Results flagged for a closer look

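Of the 9 tested genes and the 45 tested genes of the pathway list, 6 differed between the doses by the test of 1x against 0.1x Aza-TdC itself, all of them pathway genes and all lower at 1x, where 13.0% of all genes tested passed (7.13% higher and 5.86% lower). The log2 difference was −0.93 ± 0.16 for Nme1 (edgeR adjusted p = 0.00575), with 22.8, 29.5 and 23.1 CPM at 0.1x and 10.7, 14.5 and 14.5 CPM at 1x. It was −0.81 ± 0.14 for Nme6 (adjusted p = 0.00630), −0.53 ± 0.12 for Nudt1, which hydrolyses oxidised purine nucleotides (adjusted p = 0.0137), −0.89 ± 0.26 for the efflux pump Abcc5 (adjusted p = 0.0375), −0.54 ± 0.16 for the purine phosphorylase Pnp (adjusted p = 0.0414) and −0.44 ± 0.13 for Cmpk1, the UMP and CMP kinase that adds the second phosphate to deoxycytidine analogues (adjusted p = 0.0447). None of the 6 calls held without the 2 libraries of largest composition trend (sample 3 at 0.1x, sample 2 at 1x). Adjusted p was 0.0523 for Nme1, 0.0559 for Nme6, 0.105 for Nudt1, 0.174 for Abcc5, 0.137 for Pnp and 0.373 for Cmpk1. In the same order the log2 differences were −0.67, −0.69, −0.41, −0.81, −0.56 and −0.18. That setting leaves 1 library fewer at each dose, and 260 of all genes passed between the doses, beside 1802 in the main fit. With the composition trend removed Nudt1 (−0.19, adjusted p = 0.231), Pnp (−0.51, 0.0735) and Cmpk1 (−0.34, 0.0960) did not pass, and with only the 2 groups in the fit Abcc5 (0.0667), Pnp (0.0819) and Cmpk1 (0.111) did not. Leaving out 1 library ended the call for Nudt1 (1x sample 2, 0.0786), Pnp (0.1x sample 1 or 1x sample 2 or 5, 0.107 to 0.169), and Abcc5 and Cmpk1 (0.1x sample 1 or 3 or 1x sample 2 or 5, 0.0725 to 0.131 and 0.0568 to 0.197). In the same comparison 6 of 12 macrophage markers were lower at 1x and 0 higher, and their part in these differences was not tested.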

How the results depend on the processing

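Of 2569 values of single genes under the alternatives, 2365 kept the side of the threshold, 144 lost a call and 60 gained one, 0 called values changed direction, and 89 with no call either way changed sign. The tests of both ratios and the diet call of Slc29a1 changed under none of the alternatives run. Correlations between groups of deviations from the group mean ran from −0.215 to 0.0757 for same-numbered samples. For other samples they ran from −0.176 to 0.216. With so few samples this cannot decide whether the replicate numbers pair the samples. No other group holds a sample with the number of 0.1x sample 1 or of 1x sample 2. In the fit with a replicate block these samples therefore add nothing to the contrasts, and both dose groups are in effect smaller. With the replicate block, the genes passing numbered 33 at 0.1x and 53 at 1x against the MASLD diet, 0 between the doses, and 1379 (0.1x) and 1122 (1x) against the standard diet, and Slc29a1 stood at −1.24 on the diet (adjusted p = 0.000170). Other counts of genes passing that moved over 1.5-fold were, at 1x against the MASLD diet, 807 with DESeq2, 1131 with no filter, 1013 with only the 2 groups compared and 653 with the trend removed; with only 2 groups, 744 between the doses and 1660 at 0.1x against the standard diet; with the trend removed, 522 at 0.1x against the MASLD diet and 575 between the doses; and 260 between the doses without both trend libraries. At a threshold of 0.01 they were 2254 on the diet, 116 at 0.1x, 91 at 1x, 254 between the doses, and 1320 (0.1x) and 1357 (1x) against the standard diet. Leaving out 1 library gave 2654 to 3850 on the diet, 382 to 1599 at 0.1x, 83 to 396 at 1x, 210 to 1844 between the doses, and 1790 to 2619 (0.1x) and 1699 to 2559 (1x) against the standard diet. The lowest of these came without MASLD sample 4 (first 3), 1x sample 2 (between the doses and 1x against the standard diet) and standard-diet sample 4. The causes of these shifts were not tested.

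Of the 9 genes, at 1x against the MASLD diet 1 passed with RLE factors, no filter, a mean of at least 1 CPM, only the 2 groups compared or the trend removed, and 2 with DESeq2. Between the doses 1 passed with DESeq2 or at a mean of at least 1 CPM. At 0.1x against the standard diet 2 passed with DESeq2, no filter, a mean of at least 1 CPM or the trend removed, 4 without both trend libraries (Slc29a1, Nt5c2, Samhd1 and Rrm1), and 1 to 2 without 1 library. On the diet 2 to 4 passed without 1 library. With the trend removed 1586 genes were higher and 2869 lower on the diet (2164 and 1921 as deposited), 366 and 156 at 0.1x (843 and 983), 387 and 266 at 1x (207 and 224), 270 and 305 at 1x against 0.1x (989 and 813), and against the standard diet 1250 and 1996 at 0.1x (1366 and 1506) and 1056 and 1795 at 1x (1374 and 1365). Depth limits Dctd, Slc28a2 and Slc29a2, at 0 to 48 counts per library.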
